A study of Mus musculus with 2 samples.

Results

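A population of mesenchymal cells with high Hand1 and with Lum, Col3a1, Tdo2 or Hsd11b2 transcripts, here called the Hand1-Lum-Tdo2 mesenchyme, was selected on its own measured transcripts in single-cell RNA-Seq of chimeric mouse embryos. A cell was a member where it held at least 3 spliced Hand1 UMIs (unique molecular identifiers, each standing for 1 captured transcript), at least 5 UMIs summed over Lum, Col3a1, Tdo2 and Hsd11b2, fewer than 2 UMIs of the allantois gene Tbx4, 0 UMIs of the endothelial gene Cdh5, and embryonic globin (Hba-x, Hbb-bh1 and Hbb-y) under 0.5% of its spliced UMIs. This rule found 402 of 8981 cells (4.48%, 95% exact binomial interval 4.06 to 4.92%) in the tdTomato-positive library and 325 of 9252 cells (3.51%, 3.15 to 3.91%) in the tdTomato-negative library, in all 727 of 18233 cells. The intervals cover counting error only, and with 1 library per fraction no test between the fractions was possible. The rule sets UMI minimums, so the shares depend on depth. With cells thinned to 5000 UMIs they were lower and closer together, as given in the closing section. Members were chosen by these spliced UMIs, so their levels are a description, and all comparisons of members with other cells below are descriptions as well.

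The tomPOS library holds the tdTomato-positive progeny of Gata1- embryonic stem cells (ESCs), and the tomNEG library the wild-type tdTomato-negative host cells of the same chimeras. Both fractions were sorted from 1 pool of 6 whole embryos, and neither fraction has a second library. The injected cells were a single clone, with a frameshift of 38 bp in exon 4 of Gata1, made in a male ESC line with a ubiquitous tdTomato reporter that was stated to have a normal karyotype. The hosts were C57BL/6 blastocysts of embryonic day 3.5, and the embryos were collected at E8.5. A label of the tomNEG library gives E8.6 for the same pool, while the title of that library gives E8.5. Genotype, clone, make-up by sex, genetic background and sort all differ between the libraries together and cannot be told apart.

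The amnion is a thin membrane of an ectodermal and a mesodermal layer that encloses the embryo, and its mesodermal layer arises, with that of the yolk sac, chorion and allantois, from extraembryonic mesoderm of the primitive streak. Hand1 is a transcription factor needed for this mesoderm, and BMP4 is among its best known signals. Lumican (Lum) and type III collagen (Col3a1) are secreted matrix components of mesenchyme, tryptophan dioxygenase (Tdo2) opens the kynurenine route of tryptophan breakdown, and Hsd11b2 inactivates glucocorticoids.

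Members were as deep as the rest of their libraries. Spliced UMIs per member ran from 6239 to 89926 (median 17551) in tomPOS and from 7637 to 45873 (median 16682) in tomNEG, against library medians of 17598 and 15996. The member sums held 7689022 and 5782080 spliced UMIs, of library totals of 167940767 and 157174026. Unspliced transcripts made up 13.3 and 13.4% of member UMIs, and mitochondrial transcripts a median of 2.28 and 2.25%. Doublets were called for 22 and 14 members (5.47 and 4.31%), and 1 of the 18 barcodes that the libraries share belonged to members. Values are given tomPOS first, and CPM means counts per 1000000 spliced UMIs, summed over the named cells.

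The labels could be checked only in part within this population. Gata1 itself was at 6 and 8 UMIs in the members of the libraries, so it says nothing about the knockout here. No tdTomato UMI, spliced or unspliced, was counted in any member. These include the cells sorted as tdTomato-positive, so this count cannot check the sort and is not read as absence of the reporter. Xist, the X-inactivation transcript of female cells, was found in 6 of 402 tomPOS members and 163 of 325 tomNEG members. Among the tomPOS members 5 held at least 3 Xist UMIs, which a male line should lack. The Y-linked gene Ddx3y was at 402 and 171 UMIs.

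The rule genes were unevenly spread over the members. Hand1 (ENSMUSG00000037335, chromosome 11, 57828705 to 57832818, minus strand, GRCm38) ran from 3 to 39 UMIs per cell in tomPOS (median 12) and from 3 to 48 in tomNEG (median 14). Lum (ENSMUSG00000036446, chromosome 10, 97565128 to 97572703, plus strand) ran from 0 to 39 UMIs per cell in tomPOS (median 2) and from 0 to 47 in tomNEG (median 5). Lum was thus the more abundant per cell in tomNEG, although the ranges overlapped almost entirely. Tdo2 (ENSMUSG00000028011, chromosome 3, 81957090 to 81976202, minus strand) ran from 0 to 59 UMIs per cell in tomPOS (median 5) and from 0 to 80 in tomNEG (median 3), and had the reverse order of medians. Summed over members, Tdo2 was nonetheless at 417 and 452 CPM, and it was lower in tomPOS within each sub-cluster described below. Sub-cluster 3, with Tdo2 at 13.1 and 22.6 CPM, held 8.96% of tomPOS and 23.1% of tomNEG members. Col3a1 (ENSMUSG00000026043, chromosome 1, 45311538 to 45349706, plus strand) and Hsd11b2 (ENSMUSG00000031891, chromosome 8, 105518755 to 105523988, plus strand) had closer medians, of 2 and 3 UMIs and of 4 and 5 UMIs. By summed CPM all 5 rule genes were lower in tomPOS, with a median log2 fold of -0.39, and Tdo2 differed least.

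**Figure D1:**
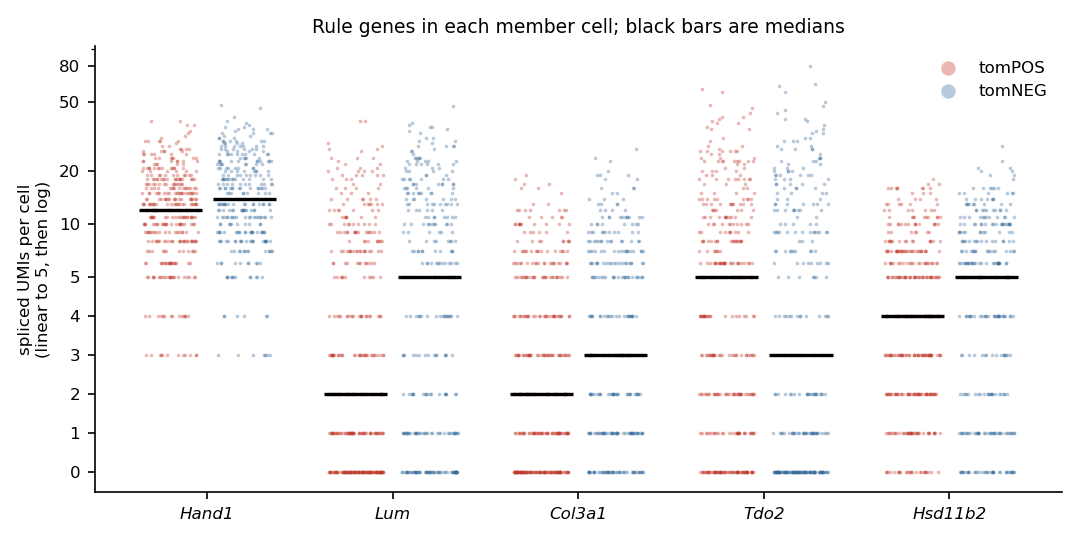
Spliced UMIs of the 5 rule genes in each of the 402 tomPOS (red) and 325 tomNEG (blue) members, on an axis that is linear to 5 and logarithmic above; black bars are medians. Lum has a median of 2 UMIs in tomPOS and 5 in tomNEG, Tdo2 a median of 5 and 3, and many cells of each library are at 0 for one of the genes of the sum.

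All 4 genes of the sum were detected together in 189 tomPOS members (47.0%) and 162 tomNEG members (49.8%), and a single one of them carried the whole sum in 20 and 14 cells. At least 1 Lum UMI was present in 72.4% (67.7 to 76.7%) of tomPOS members and 81.2% (76.6 to 85.3%) of tomNEG members, against 1.79% and 2.09% of neural cells, which should lack it and gauge free RNA (median 18506 and 16698 UMIs per cell). Tdo2 was present in 82.1% (78.0 to 85.7%) and 68.9% (63.6 to 73.9%), against 0.893% and 1.15% of neural cells. Neural cells were less clean for Hsd11b2, at 22.2% and 23.4%, than for the other 3 genes. Tdo2 supplied 37.6% of the 4-gene sum in tomPOS and 29.4% in tomNEG, Lum 23.6 and 31.3%, Hsd11b2 23.4 and 22.2%, and Col3a1 15.4 and 17.1%.

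The thresholds cut through continuous distributions. Members at exactly 5 UMIs of the sum (38 and 24 cells) had 1922 and 2526 CPM of Krt18, and cells at 4 UMIs that met every other limit (40 and 28 cells) had 2104 and 2102 CPM. At the Hand1 limit, 12 and 7 members held 3 UMIs, and 7 and 5 otherwise passing cells held 2. By contrast, 469 and 399 cells met the Hand1, Tbx4, Cdh5 and globin limits with none of the 4 genes detected, and these had 1160 and 990 CPM of Krt18 and 516 and 392.3 CPM of Pmp22, against 2398 and 2586 CPM and 1131 and 1362 CPM in all members.

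The label of amnion-like and extraembryonic mesenchyme was compared with marker lists. Of 18 amnion and extraembryonic mesoderm markers that the rule did not use, 17 reached 100 UMIs over the members and 16 reached 100 in each library, and 11 of these were at least 2-fold above all other cells in both libraries. The 18 summed to 6833 and 8055 CPM in members and 1395 and 1141 CPM in other cells, but to 2877 and 3062 CPM in allantois, 2193 and 2130.1 CPM in splanchnic mesoderm and 2700.4 and 3200.0 CPM in cardiomyocytes. Members held 1382 to 13501 CPM per cell in tomPOS (median 7062) and 1212 to 17140.4 CPM per cell in tomNEG (median 8016). Krt18 (2398 and 2586 CPM) and Pmp22 (1131 and 1362 CPM) were large parts of the member sum. Bambi, Msx1, Msx2 and Wnt2 were among the 16 and did not pass the fold in both libraries. Gata4 (11.6 and 10.0 CPM) and Cdo1 (2.47 and 1.90 CPM), on that list but not among the 16, were not above other cells (14.8 and 10.5 CPM, and 3.67 and 4.29 CPM). The list of surface and amniotic ectoderm markers was mixed. It summed to 232 and 272 CPM in members and 256 and 284 CPM in other cells, and Krt19 (178 and 209 CPM, against 46.8 and 55.1 CPM) was at least 2-fold higher in both libraries. Of its other genes, Epcam (16.1 and 10.7 CPM, against 99.6 and 110.4 CPM elsewhere), Cdh1 (1.30 and 1.90 CPM), Grhl2 (0.390 and 0.692 CPM) and Tfap2a (2.73 and 1.38 CPM) lay below other cells. The lists used here did not separate amnion from other extraembryonic mesoderm.

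Marker lists of neighbouring cell types were summed in members and set beside all other cells or beside the cell type itself. Allantois markers summed to 425 and 389 CPM in members, 349.8 and 279 CPM in other cells and 1805 and 1739 CPM in allantois cells, the cells with at least 2 UMIs each of Tbx4 and Pitx1. Within that list Spin2c (218 and 218 CPM, against 101 and 63.2 CPM) and Pitx1 (169.7 and 114 CPM, against 78.3 and 45.1 CPM) were above other cells, and Tbx4 was fixed low by the rule. Of its 4 genes tested in both libraries 1, Cdx4, was at least 2-fold lower in both, with values given below. Cardiomyocyte markers summed to 469 and 359 CPM against 27008 and 30724 CPM in cardiomyocytes (at least 10 UMIs each of Tnnt2 and Myl7), with 0 to 18585 CPM per cell in tomPOS (median 170.3) and 0 to 14039.6 CPM per cell in tomNEG (median 162). Endothelial markers summed to 82.3 and 97.7 CPM against 109.5 and 84.7 CPM in other cells, with Cdh5 at 0 by the rule, and trophoblast markers to 47.0 and 43.4 CPM against 29.7 and 71.4 CPM. Visceral endoderm markers summed to 169.7 and 15.05 CPM against 74.3 and 445 CPM. A single tomPOS member held 1104 of the 1305 visceral endoderm UMIs of tomPOS members, and the median member held 0 CPM in both libraries. The allantois sum was thus above other cells in both libraries, the trophoblast sum in tomPOS and the endothelial sum in tomNEG. The visceral endoderm sum was above them in tomPOS mostly through that 1 cell. Neural markers summed to 52.4 and 57.6 CPM against 163 and 269 CPM, pharyngeal and splanchnic mesoderm markers to 48.3 and 63.0 CPM against 91.4 and 76.0 CPM, and paraxial mesoderm markers to 25.8 and 18.5 CPM against 113 and 136 CPM, each lower in members. Blood markers summed to 191 and 719 CPM against 4113 and 20365 CPM in other cells, a difference that the globin limit of the rule fixes in part. Hba-x was found in all tomNEG members (100%) and 99.3% of tomNEG neural cells, and in 54.5 and 58.0% of the tomPOS ones. Neural cells should lack it, so its presence in members is not read as expression.

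Against all other cells of their own library, 315 of 5856 genes with at least 100 UMIs in the members of each library were at least 2-fold higher in both (5.38% of the genes tested), and 37 were at least 2-fold lower in both (0.632%). Folds were taken with 10 CPM added to each level. The median fold over all genes was 1.00 in tomPOS and 1.03 in tomNEG.

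The rule genes themselves stood far above the rest of the embryo. Tdo2 was at 417 and 452 CPM in members and 3.03 and 2.49 CPM in other cells, and Lum at 262 and 479 CPM and 3.18 and 5.07 CPM. Both were about as low in allantois, in splanchnic mesoderm (at least 2 UMIs each of Foxf1 and Isl1, Tbx4 below 2) and in cardiomyocytes, where Lum lay between 0.489 and 1.49 CPM and Tdo2 between 1.80 and 9.86 CPM. Splanchnic mesoderm and cardiomyocyte cells that met the member rule had been left out, so the low levels there are set in part by the rule. Hand1 was less restricted, at 703 and 895 CPM in members and 307 and 368 CPM in allantois cells.

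Apart from these, the 20 genes with the largest folds were led by Smoc2 (162 and 229 CPM, against 7.48 and 8.88 CPM in other cells), a secreted calcium-binding matrix protein, and Gas6 (156 and 214 CPM, against 9.82 and 7.41 CPM), the ligand of the TAM receptor kinases. The myelin and epithelial membrane protein gene Pmp22 was at 1131 and 1362 CPM against 143 and 99.2 CPM, and was also high in allantois cells (529.7 and 562 CPM). Steap1, a member of the STEAP family, was at 134 and 157 CPM against 8.62 and 7.24 CPM, and the collectin Colec11 at 80.1 and 99.1 CPM against 2.90 and 1.86 CPM. The transcription factor genes Creb3l1 (105 and 123 CPM), which acts on collagen secretion, and Snai2 (118 and 121 CPM), a regulator of epithelial to mesenchymal transition, were also among the 20. So was the neuropilin gene Nrp1, a co-receptor for semaphorins and VEGF, at 347 and 391.7 CPM against 55.3 and 43.8 CPM. The others were Sdpr (96.1 and 131 CPM, against 4.90 and 4.25 CPM), Mid1ip1 (245 and 255 CPM, against 30.4 and 21.7 CPM), Stard8, Slc27a3, Wisp1, Postn, Tagln, Acta2, Krt18, Col1a1, Col1a2 and Col5a2.

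**Figure D2:**
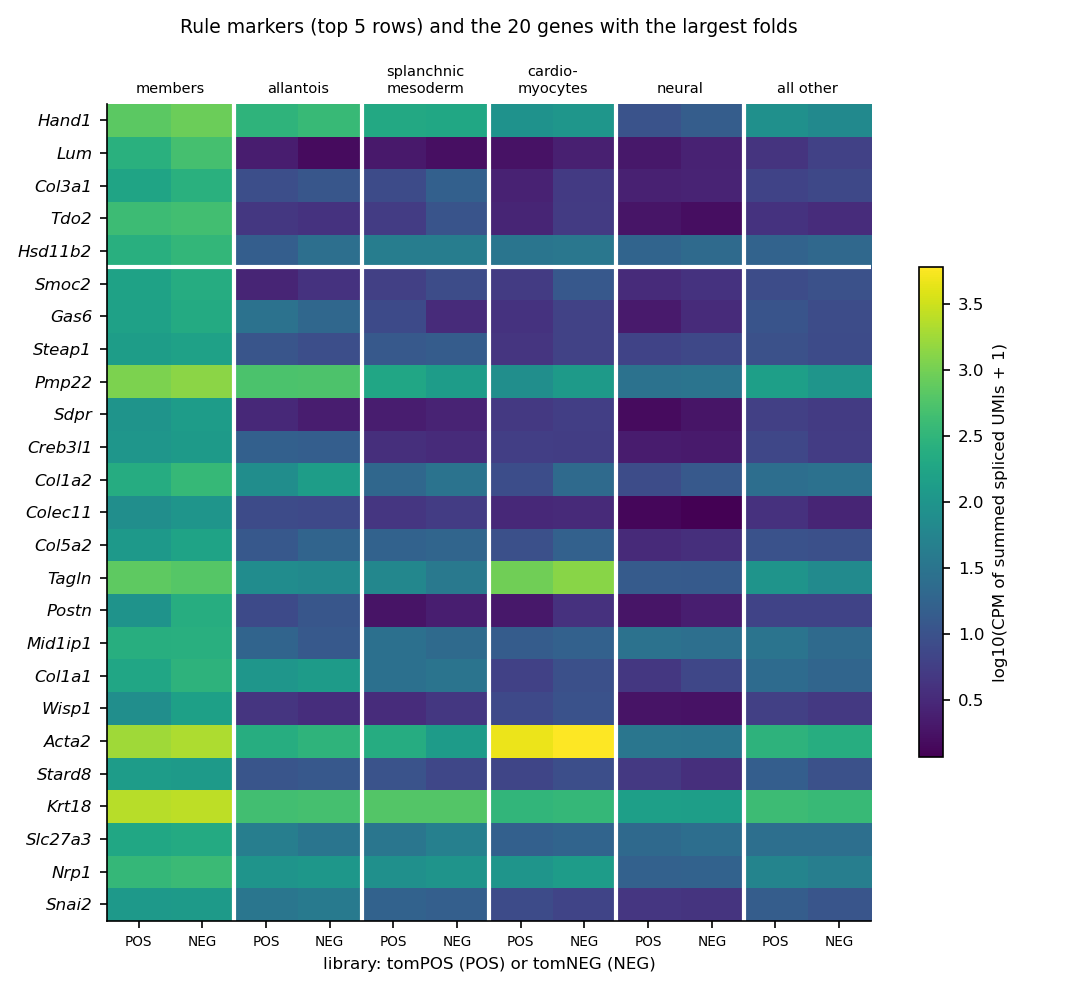
Level of the 5 rule genes (above the white line) and of the 20 genes with the largest folds (below it) in 6 groups of cells of each library, as log10 of CPM plus 1. The member columns are the brightest for every gene except Tagln and Acta2, which are higher in cardiomyocytes, where Acta2 reaches 4642 and 6057 CPM against 1803 and 2133 CPM in members.

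Matrix genes were prominent among them. Of 9 collagen genes tested in both libraries beside Col3a1, 5 were at least 2-fold higher in members, and none was lower. Fibrillar collagen genes led them: Col1a2 was at 233 and 354 CPM against 24.6 and 27.1 CPM in other cells, Col1a1 at 185 and 298 CPM against 22.0 and 18.0 CPM, and Col5a2 at 120.4 and 169 CPM against 8.93 and 8.501 CPM. The basement membrane gene Col4a1 (132 and 149 CPM, against 71.9 and 89.9 CPM) and Col18a1 (84.0 and 136 CPM, against 98.7 and 87.8 CPM) did not reach the fold. Allantois cells also held Col1a1 (105 and 127 CPM) and Col1a2 (76.2 and 134 CPM), but little Lum or Postn.

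Of 15 matrix glycoprotein and proteoglycan genes beside Lum, 10 were at least 2-fold higher in both libraries. Sparc, a collagen-binding protein, was at 844 and 1218 CPM against 197 and 219 CPM, and fibronectin (Fn1) at 447 and 444 CPM against 168 and 147 CPM. Periostin (Postn), which cross-links matrix, was at 95.1 and 236 CPM against 5.55 and 5.48 CPM, and the small proteoglycan decorin (Dcn) at 41.6 and 60.0 CPM against 2.12 and 3.08 CPM. Of 12 matrix-processing genes 5 were higher, with the collagen chaperone Serpinh1 at 1609 and 2036 CPM against 509 and 527 CPM, the lysyl hydroxylase Plod2 at 147 and 183 CPM against 40.8 and 43.9 CPM, and the metalloproteinase Adamts9 at 86.9 and 84.4 CPM against 10.2 and 8.65 CPM.

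A second large group was that of contractile and squamous cytoskeleton genes, where 18 of 24 were at least 2-fold higher than other cells in both libraries and 1, the cardiac actin gene Actc1 (119 and 61.1 CPM, against 405 and 326 CPM), was lower. The list summed to 14687 and 16763 CPM in members, 5160.1 and 5669.9 CPM in allantois and 27329.7 and 32556 CPM in cardiomyocytes. The simple-epithelial keratin Krt18 was found in every member, from 2 to 142 UMIs per cell in tomPOS (median 43.5) and from 2 to 130 in tomNEG (median 42), and stood at 2398 and 2586 CPM against 411 and 365 CPM. Its partner Krt8 was at 1414 and 1918 CPM against 289.8 and 268 CPM, and Krt19 at 178 and 209 CPM against 46.8 and 55.1 CPM. These keratins were thus present together with the mesenchymal filament gene Vim (1805 and 2015 CPM, against 366 and 249.7 CPM) and with little Epcam or Cdh1. Smooth-muscle genes were high too, with Acta2 at 1803 and 2133 CPM, Tagln at 721 and 629 CPM and Cald1 at 947 and 1095 CPM, against 297 and 242 CPM, 96.4 and 69.8 CPM and 259.8 and 233 CPM. Of 9 adhesion genes 7 were higher, among them Pcdh7 (152 and 163 CPM, against 31.3 and 25.4 CPM) and the mesenchymal cadherin Cdh11 (116 and 124 CPM, against 38.88 and 34.5 CPM).

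Of signalling genes, ligands of the BMP and TGF-beta families summed to 354 and 441 CPM in members and 198 and 136 CPM in other cells, with like sums in allantois (379 and 407 CPM) and cardiomyocytes (358 and 402 CPM). Bmp4 was at 195 and 247 CPM against 51.2 and 36.0 CPM, and Bmp5 at 33.7 and 34.9 CPM against 9.67 and 7.89 CPM, and these were the 2 of 5 tested ligands of the BMP and TGF-beta families past the fold in both libraries. Bmp2 was at 51.0 and 81.3 CPM against 21.5 and 15.3 CPM, and passed it in tomNEG alone. None of 5 receptors and mediators and none of 8 targets and antagonists passed upward. Of these, Id1 (104 and 112 CPM, against 251 and 229 CPM) and Id2 (101 and 146 CPM, against 211 and 223 CPM) were lower than in other cells, although not by 2-fold in both libraries. Of 9 Wnt genes 1 was higher, the antagonist Dkk2 (17.7 and 19.7 CPM, against 1.65 and 0.958 CPM), and 2 were lower, the decoy receptor Sfrp1 (32.1 and 46.9 CPM, against 94.6 and 120.0 CPM) and the effector Lef1 (26.0 and 31.5 CPM, against 75.1 and 78.6 CPM).

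Of 16 mesodermal transcription factor genes beside Hand1, 5 were at least 2-fold higher in both libraries, among them Snai2, Foxf1 (206 and 208 CPM, against 40.2 and 30.0 CPM), Gata6 (123 and 135 CPM, against 53.8 and 37.9 CPM) and Tbx20 (62.4 and 79.4 CPM, against 18.9 and 11.1 CPM). Foxf1 and Gata6 act in extraembryonic and splanchnic mesoderm. Trunk Hox genes were detected and posterior ones hardly, since Hoxb6 was at 48.3 and 50.2 CPM and Hoxb2 at 107 and 112 CPM, while the Hox genes of the posterior list reached 100 UMIs over the members in 3 of 12 cases and the one with most UMIs, Hoxb9, was at 15.3 and 12.5 CPM against 49.4 and 59.1 CPM. Among growth factor genes 4 of 12 were higher and 1 lower, and the list summed to 1771 and 1994 CPM in members against 2132 and 2309 CPM in other cells. Of the higher ones Kitl, the ligand of Kit, was at 117 and 85.6 CPM against 39.2 and 36.3 CPM. Vegfa was at 59.3 and 63.0 CPM against 22.8 and 18.3 CPM, and Angpt1, a ligand of Tek, at 41.2 and 53.1 CPM against 11.99 and 8.61 CPM. The receptor gene Tek, best known from endothelium, was itself found in 46.8% and 48.9% of members, and in 2.23% and 1.72% of neural cells, although the rule kept out all cells with Cdh5.

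The pathways of Tdo2 and Hsd11b2, both rule genes, were examined next. Of 14 listed genes of the tryptophan and kynurenine route, Tdo2 and the amino-acid transporter subunit Slc3a2 (80.1 and 82.2 CPM, against 114 and 108 CPM) alone reached 100 UMIs over the members. The downstream enzyme genes Afmid, Kmo and Acmsd, and the alternative first enzyme Ido1, were at 0 UMIs in all 727 members, which allows up to 3 UMIs for each. Of 9 genes of glucocorticoid handling all were detected, and of the 2 tested in both libraries beside Hsd11b2 none passed the fold. Of 6 water and ion transport genes 2 were at least 2-fold higher in both libraries, with median folds over the 6 of 0.890 and 1.11, and the water channel gene Aqp1 was at 0 UMIs. The glucose transporter gene Slc2a1 was at 1711 and 1961 CPM against 435 and 499 CPM, and the carbonic anhydrase Car4 at 423 and 507 CPM against 130.4 and 140.1 CPM. Of 8 genes of the IGF axis 2 were higher, Igf2 (573 and 1013 CPM, against 129 and 207 CPM) and its binding protein gene Igfbp2 (696 and 971 CPM, against 141 and 190.4 CPM).

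The 37 lower genes included globins, which the rule itself capped. Beside these they included Crabp2 (20.9 and 28.02 CPM, against 164 and 222 CPM) and Crabp1 (102 and 115 CPM, against 439.7 and 509 CPM), which bind retinoic acid, and the caudal homeobox gene Cdx4 (17.3 and 29.4 CPM, against 111 and 132 CPM). Cell cycle genes did not set the population apart: none of 24 S-phase genes and none of 24 G2/M genes passed the fold, with median folds of 0.870 and 0.802 for the former and 0.996 and 1.01 for the latter. Of 5 stress and immediate early genes 1 passed, Fos, at 87.0 and 104 CPM against 23.5 and 25.1 CPM.

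Between the fractions, 7822 genes had at least 100 UMIs over the members of both. Of these 13 were at least 2-fold higher in tomPOS members (0.166%) and 50 at least 2-fold lower (0.639%), and the median log2 fold of tomPOS over tomNEG over all of them was -0.03. These counts moved with the setting, to 135 and 190 at a minimum of 20 UMIs, 4 and 31 with cells thinned to 5000 UMIs, and 294 and 483 of 3516 genes with the level in neural cells subtracted. The number of genes counted also differs between these settings. There is no replicate check of these differences, and the square brackets give 95% exact intervals for counting error. The same 2 libraries differ in every cell type, so the log2 fold over all other cells stands beside many of the values. A value printed without it is not to be read as particular to the members. The other cells also differ in make-up, with neural cells 12.5 and 20.7% and allantois cells 6.99 and 3.45% of the libraries. Their log2 fold thus mixes levels with make-up, and a contrast with it is not by itself particular to members either.

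**Figure D3:**
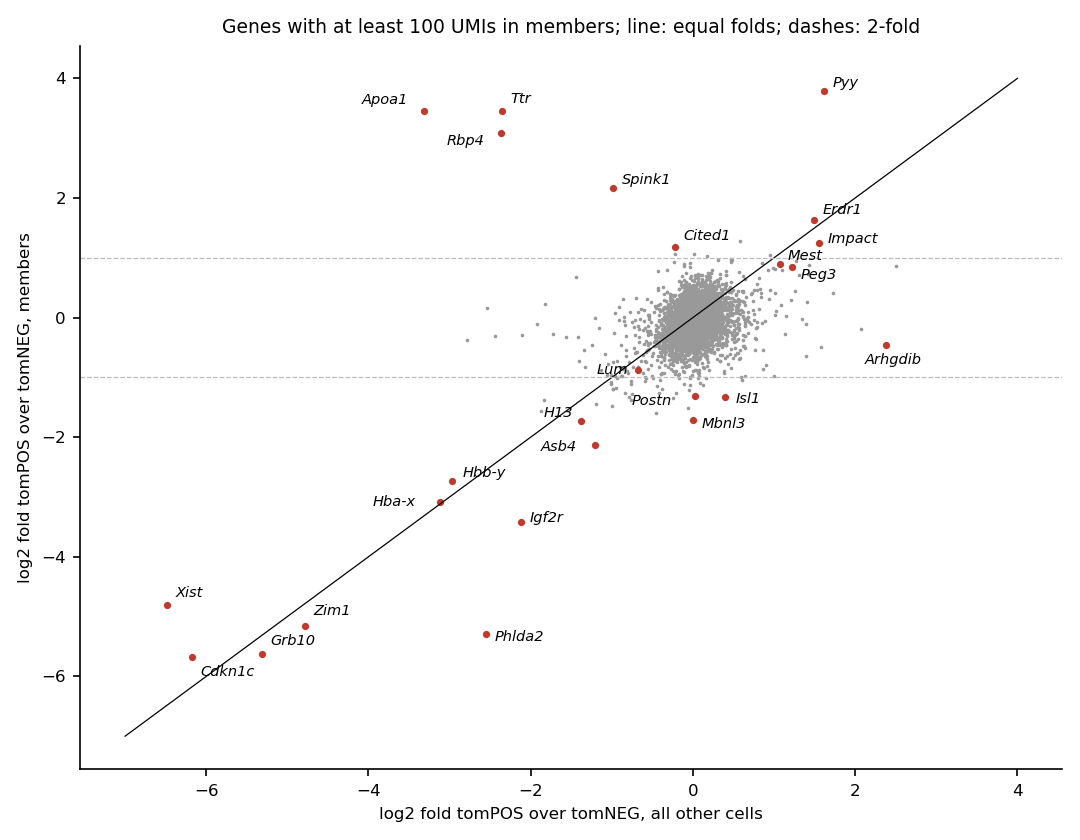
Log2 fold of tomPOS over tomNEG in members (vertical) against that in all other cells (horizontal) for each gene with at least 100 UMIs in members; red points are named, the solid line marks equal folds and the dashes 2-fold in members. Cdkn1c, Grb10, Zim1, Xist and the globins lie near the line, Phlda2, Igf2r, Postn and Mbnl3 lie below it, and Apoa1, Ttr, Rbp4 and Spink1 lie far above it.

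The largest differences were in imprinted genes, which are read from 1 parental copy. Cdkn1c, a maternally expressed inhibitor of the cell cycle (ENSMUSG00000037664, chromosome 7, 143458339 to 143461050, minus strand), was at 7.15 and 365 CPM, a log2 fold of -5.67 [-6.09 to -5.29] in members and -6.17 elsewhere. It was found in 2.24% and 89.8% of members, with 1 tomPOS cell holding 42 of the 55 tomPOS UMIs. With called doublets left out the log2 fold was -7.70. Grb10, a maternally expressed brake on insulin and IGF signalling, was at 3.77 and 185 CPM, with a log2 fold of -5.62 [-6.20 to -5.09] against -5.31 elsewhere. The maternally expressed Zim1 was at 4 and 107 UMIs.

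Phlda2 and Igf2r differed more in members than elsewhere. Phlda2, a maternally expressed gene that limits placental growth (ENSMUSG00000010760, chromosome 7, 143501545 to 143503150, minus strand), was at 15.7 and 619 CPM and was found in 11.2% and 81.2% of members. Its log2 fold was -5.30 [-5.57 to -5.04] in members and -2.55 in other cells, and -2.65 in allantois, -3.25 in splanchnic mesoderm and -4.17 in cardiomyocytes, so that members lay lowest of these. Igf2r, the maternally expressed receptor that clears IGF2 (ENSMUSG00000023830, chromosome 17, 12682406 to 12769664, minus strand), was at 20.03 and 214 CPM, a log2 fold of -3.42 [-3.67 to -3.18] against -2.12 elsewhere. Its unspliced transcripts did not show this, with a log2 fold of 0.13, and unspliced transcripts were 80.7 and 26.5% of its UMIs. Airn, an antisense RNA, overlaps Igf2r, and how strand was used in counting is not given in the sources used here, so intronic reads of the 2 genes cannot be told apart.

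The imprinted lists lay on opposite sides of 0. Of 8 maternally expressed genes tested 4 were at least 2-fold lower in tomPOS members and none higher, with a median log2 fold of -1.86 in members and -1.11 elsewhere. The other 4 were H19 (1106 and 804 CPM, log2 fold 0.46 [0.41 to 0.51]), Meg3 (0.46 [0.06 to 0.87]), Mirg (-0.30 [-0.59 to -0.00242]) and Gnas (-0.25 [-0.29 to -0.21]). Of 15 paternally expressed genes 13 had a log2 fold above 0 and 2 were at least 2-fold higher, with a median of 0.73 against 1.07 elsewhere. Mest was at 3891 and 2086 CPM (0.90 [0.87 to 0.93]), the zinc finger gene Peg3 at 2292 and 1273 CPM (0.85 [0.81 to 0.89]), and Impact at 232 and 98.1 CPM (1.24 [1.10 to 1.38]). Igf2 went the other way, at 573 and 1013 CPM (-0.82 [-0.88 to -0.76], and -0.68 elsewhere), as did Ndn (-0.23 [-0.35 to -0.11]). Beyond these lists, Asb4 was at 22.4 and 98.2 CPM (-2.13 [-2.39 to -1.89]) and H13 at 42.1 and 139.7 CPM (-1.73 [-1.92 to -1.54]), and both have been described as imprinted.

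**Figure D4:**
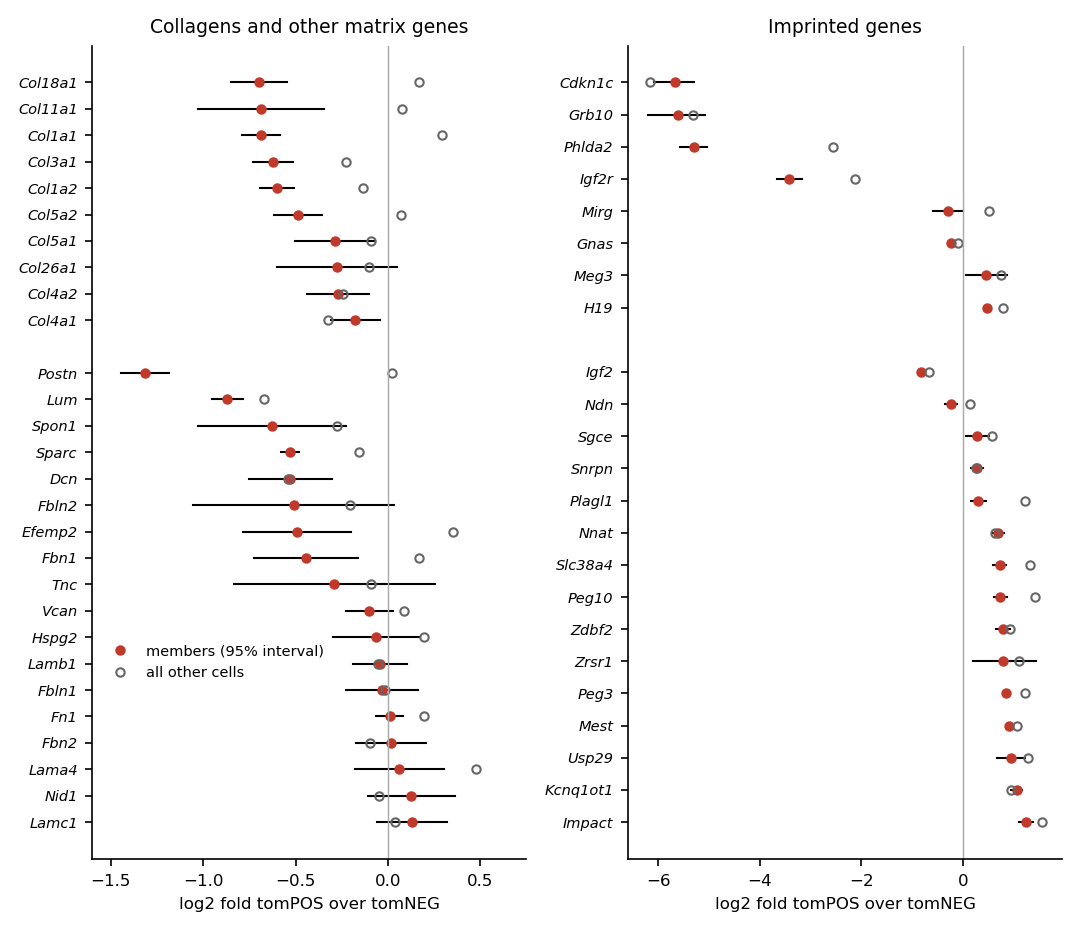
Log2 fold of tomPOS over tomNEG for matrix genes (left) and imprinted genes (right; maternally expressed above, paternally expressed below) in members (red, with 95% counting intervals) and in all other cells (open grey). All 10 collagens lie below 0 in members, Postn is the lowest matrix gene at -1.31 while other cells are at 0.02, and Cdkn1c, Grb10, Phlda2 and Igf2r lie between -5.67 and -3.42.

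Most matrix genes were lower in tomPOS members, nearly all by less than 2-fold. All 10 collagen genes tested had a log2 fold below 0, with a median of -0.54 in members and -0.10 in other cells, and none passed 2-fold. A lower collagen level in tomPOS was not particular to members. The summed collagen list was at 1101 and 1591 CPM in members and 416 and 533 CPM in allantois. It was at 250.1 and 288 CPM in splanchnic mesoderm and 329 and 357 CPM in cardiomyocytes. Without the rule gene Col3a1 all 9 were below 0, with a median of -0.49 against -0.09. Col1a1 had -0.68 [-0.79 to -0.58] against 0.29 elsewhere, Col3a1 -0.62 [-0.73 to -0.51] against -0.23, and Col18a1 -0.70 [-0.85 to -0.54] against 0.17. Of 17 matrix glycoprotein and proteoglycan genes beside Lum 12 were below 0 (median -0.10, other cells -0.02), and of 15 matrix-processing genes 13 (median -0.27, other cells 0.10). Over all 7822 genes 4352 were below 0. Fibronectin did not differ beyond counting error (0.01 [-0.06 to 0.08]), nor did the laminin gene Lamb1 (-0.04 [-0.19 to 0.11]).

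Periostin was the 1 matrix gene past 2-fold. Postn (ENSMUSG00000027750, chromosome 3, 54361109 to 54391037, plus strand) had 731 and 1367 UMIs in members and a log2 fold of -1.31 [-1.45 to -1.18], against 0.02 in other cells. Per cell it ran from 0 to 16 UMIs per cell in tomPOS (median 1) and from 0 to 36 in tomNEG (median 2), and it was found in 57.2% and 69.2% of members, so the ranges overlapped. Lum, a rule gene, had -0.87 [-0.95 to -0.79] against -0.67 elsewhere. The matrix gene Wisp1, a member of the CCN family, had -0.92 [-1.07 to -0.77] against 0.39. Over the 17 alternatives tried for it, the Postn log2 fold ran from -1.32 to -0.98. Among these, the other UMI minimums and leaving out a run of chromosome 3 genes described below could not change it.

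Most signalling and transcription factor genes were also below 0, mostly by smaller amounts. Wnt4 was at 15.6 and 34.2 CPM (-1.13 [-1.47 to -0.80]) and Wnt6 at 20.3 and 41.0 CPM (-1.01 [-1.32 to -0.72]), and all 15 Wnt genes tested were below 0, with a median of -0.31 against 0.08 elsewhere. Wnt4, Wnt6, Bmp2, Postn and Mbnl3 are leading genes of a sub-cluster described below (number 3) that held 8.96% of tomPOS and 23.1% of tomNEG members, so their pooled folds are also given within sub-clusters or with these weighted equally. Within it Wnt4 was at 123 and 112 CPM, a log2 fold of 0.13 [-0.28 to 0.53], and Wnt6 at 56.9 and 151 CPM, a log2 fold of -1.41 [-1.94 to -0.90]. In sub-clusters 1, 4 and 5 Wnt6 was higher in tomPOS, at 11.1 and 1.41 CPM, 6.24 and 5.37 CPM and 60.8 and 26.7 CPM, on 1 to 57 UMIs per library. The sum of the Wnt list was slightly higher in tomPOS in sub-clusters 0 (235 and 227 CPM), 1 (499 and 481 CPM) and 2 (240 and 230 CPM). It was lower in sub-clusters 3 (1031 and 1213 CPM), 4 (449 and 598 CPM) and 5 (487 and 636 CPM). Some other settings moved the pooled folds away from 0, Wnt6 to -3.12 with the level in neural cells subtracted and Wnt4 to -2.13 from unspliced transcripts alone. The Wnt2 fold was -0.85 [-1.04 to -0.66] against 0.47. Bmp2 was at -0.67 [-0.87 to -0.48] against 0.49 elsewhere, and Bmp4 at -0.34 [-0.45 to -0.24] against 0.51. The summed BMP and TGF-beta ligands were higher in tomPOS over all other cells (198 and 136 CPM). They were not in allantois (379 and 407 CPM) or cardiomyocytes (358 and 402 CPM), and splanchnic mesoderm had 266 and 262 CPM. By sub-cluster, Bmp2 was higher in tomPOS in number 1 (64.5 and 42.2 CPM) and lower in tomPOS in the others. Of 24 transcription factor genes beside Hand1, 20 were below 0, and Isl1, which had 37 and 70 UMIs, passed 2-fold at -1.33 [-1.95 to -0.74] against 0.40. Most Isl1 UMIs over both libraries lay in sub-cluster 4, which held 9.20% of tomPOS and 18.5% of tomNEG members and had Isl1 at 14.97 and 51.9 CPM. In sub-clusters 0 to 3 Isl1 was at most 7.30 CPM and higher in tomPOS than in tomNEG. With sub-clusters weighted equally its log2 fold was -0.97, under 2-fold, and with cells thinned to 5000 UMIs -0.60. Foxf1 (-0.02 [-0.12 to 0.09]) and Snai2 (-0.03 [-0.18 to 0.11]) did not differ beyond counting error. Of 24 S-phase genes 21 were above 0, with a median of 0.14 against -0.01 elsewhere, and of 24 G2/M genes 18 were below 0, with a median of -0.13 against -0.04.

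Part of the lower genes lay side by side on chromosome 3. In gene order, 28 neighbouring tested genes from Pik3ca (start 32397671) to Sclt1 (start 41626720, GRCm38) all had a log2 fold of -0.51 or lower in members, from -1.48 to -0.51 with a median of -0.97, while the next longest such run on any chromosome was of 3 genes. The same 28 genes had a median of -0.94 in all other cells, -0.94 in allantois, -0.99 in splanchnic mesoderm, -0.98 in cardiomyocytes and -1.01 in neural cells. The nearest tested genes on either side, Cldn11 (0.90) and Pabpc4l (0.18), were not lower, and the other 370 tested genes of chromosome 3 had a median of -0.02. The run includes Anxa5, an annexin that binds phospholipid (106 and 295 CPM, log2 fold -1.48 [-1.602 to -1.36], other cells -1.004), Ndufb5, a subunit of respiratory complex I (198 and 429 CPM, -1.11 [-1.20 to -1.02]), the cyclin gene Ccna2 (123 and 223 CPM, -0.85 [-0.98 to -0.73]), and Plk4 (43.4 and 99.4 CPM, -1.19 [-1.39 to -0.998]). It supplied 11 of the 50 genes at least 2-fold lower, and 39 were left without it. The run was singled out after its values were seen, and its cause was not tested. Postn also lies on chromosome 3 but outside the run, and its nearest tested neighbours on either side, Ufm1 and Supt20, had 0.02 and -0.07. The other 6 of the 4 tested genes on each side lay between -0.88 and -0.02, the lowest being Lhfp at -0.88 in members and 0.03 in other cells.

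A few cells carried the largest of the higher values in tomPOS members. The visceral endoderm genes Ttr (394 and 27 UMIs), Apoa1 (234 and 16 UMIs) and Rbp4 (385 and 34 UMIs), which encode carriers of thyroid hormone, lipid and retinol, had log2 folds of 3.46, 3.46 and 3.09. A single tomPOS member held 1104 of the 1305 UMIs of 8 visceral endoderm markers, and the next cells held 97, 19 and 6. In tomNEG the highest cell held 4 of 87. None of the 3 tomPOS cells with at least 10 such UMIs was called a doublet. Without them the log2 folds of Ttr, Apoa1 and Rbp4 were -0.75, -1.58 and -0.09, and 6 genes, not 13, were at least 2-fold higher. Leaving out the 5 tomPOS members with at least 3 Xist UMIs gave Ttr at 1.19, Apoa1 at -0.69, Rbp4 at 0.95 and Spink1 at 0.98, the last 3 below 2-fold. Pyy was likewise carried by 1 cell with 121 of 128 UMIs, and Spink1 by cells with 98 and 53 of 173.

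Erdr1 and Kcnq1ot1 were higher in tomPOS with or without those 3 cells. Erdr1, found in 89.3% and 55.7% of members, was at 172 and 55.3 CPM (1.63 [1.45 to 1.81], and 1.498 elsewhere). Kcnq1ot1, the antisense RNA of the Cdkn1c domain, was at 308 and 148 CPM (1.05 [0.94 to 1.17], and 0.95 elsewhere). Without the 3 endoderm-rich cells Cited1 (42.1 and 18.5 CPM, 1.19 [0.87 to 1.52]) and Mt1 (14.4 and 6.92 CPM, 1.06 [0.53 to 1.62]) were at 0.85 and 0.55, below 2-fold. Both, and Car2 (40.3 and 16.6 CPM, 1.28 [0.95 to 1.63]) and Slc39a11 (1.06 [0.41 to 1.75]), were each found in a minority of members. On the lower side, Hba-x (-3.08 [-3.25 to -2.92]) and Hbb-y (-2.74 [-3.02 to -2.46]) stood beside log2 folds of -3.12 and -2.97 in all other cells, and other named genes were the splicing factor Mbnl3 (62 and 152 UMIs, -1.70 [-2.16 to -1.27], and 0.00 elsewhere) and Cyp26a1, which degrades retinoic acid (36 and 82 UMIs, -1.599 [-2.21 to -1.02]). Unspliced Mbnl3 transcripts did not differ in that direction, at 0.20.

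Subtracting the log2 fold of all other cells left 28 genes at least 1 higher in members (0.358% of 7818 genes) and 60 at least 1 lower (0.767%). For many of these the difference lay in the other cells. Arhgdib, a regulator of small GTPases in blood cells, had -0.46 in members and 2.38 elsewhere, and Ptpre -0.20 and 2.07. On the higher side Hebp1 (-0.38 and -2.79), which binds heme, the mitochondrial iron importer Slc25a37 (-0.30 and -2.45), Gmpr and Rhox5 (0.16 and -2.54) showed the same. Among the 10 lowest genes, those also at least 2-fold lower in the members themselves were Phlda2 (-2.75 beyond other cells), Isl1 (-1.73, with the sub-cluster values given above) and Mbnl3 (-1.70). Mbnl3 was at 71.7 CPM in sub-cluster 3 and between 3.32 and 8.98 CPM in the others, and with sub-clusters weighted equally its log2 fold was -1.11. Fgf3, Fgf10, Arhgap6, Cd55 and Gm15261, also among the 10 lowest, were less than 2-fold apart in the members and had few UMIs. Against allantois, splanchnic mesoderm or cardiomyocytes in place of all other cells, the lower genes numbered 13, 14 and 25.

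Clustering of the 727 members, with each gene centred within its library and without rule, Y-linked and imprinted genes, gave 6 sub-clusters, which are called here by number and leading genes. Their shares of the members are given as a description, since the leading genes differed between the fractions. The Postn sub-cluster (number 3) held 36 tomPOS cells (8.96%, 6.35 to 12.2%) and 75 tomNEG cells (23.1%, 18.6 to 28.05%). It was led by Slc2a3, Wnt4, Postn, Wnt6, Prss35, Mbnl3 and Bmp2. Slc2a3, a glucose transporter, was at 655 and 1078 CPM there and 128 and 102 CPM in the other members, and Wnt4 at 123 and 112 CPM and 5.14 and 12.99 CPM. Tdo2 was nearly absent, at 19.2 CPM over both libraries against 597 CPM in sub-cluster 0, while Acta2 (3012 CPM), Krt19 (460.4 CPM), Bmp4 (389 CPM) and Tek (122 CPM) were at their highest of the 6. This group was the most stable, with 96.4 to 100% of its 111 cells together under 3 other clusterings.

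Sub-cluster 1 (91 and 44 cells) was led by sarcomere genes. Ttn was at 160.3 and 169 CPM against 1.98 and 2.56 CPM in the other members, Myl7 at 515 and 528 CPM against 46.0 and 47.5 CPM, and Tnnt2 at 598 and 576 CPM against 103 and 127 CPM, and all 10 leading genes were at least 2-fold higher in both libraries. Cardiomyocytes held 4679 and 5041 CPM of Tnnt2. The same sub-cluster had the highest Tdo2 (848 CPM) and the lowest Krt19 (52.2 CPM), and 3 of its 135 cells were called doublets. Of its cells 74.8% stayed together at resolution 1 and 89.6% with 10 components. Without centring 60.7% did, within a cluster of which they made up 28.9%. Sub-cluster 4 (37 and 60 cells, 9.20 and 18.5% of members) was led by Arg1, Etv2, Id2, Sfrp1, Ifitm1 and Cdx4, of which Etv2, a factor of blood and endothelial progenitors, was at 109.8 and 43.9 CPM against 8.86 and 3.86 CPM, and Id2 at 326 and 435 CPM against 75.1 and 77.0 CPM. It was low in Lum (41.2 CPM), Acta2 (380.4 CPM) and Tagln (129.8 CPM), and 51.5 and 52.6% of its cells stayed together at resolution 1 and with 10 components, against 95.9% without centring.

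The other sub-clusters were less distinct. Sub-clusters 0 (129 and 82 cells) and 2 (79 and 48 cells) held Lum at 577 and 391.5 CPM and Col1a2 at 382 and 378 CPM, and none of their 10 leading genes was 2-fold higher in both libraries. They differed in the histone gene Hist1h1b (1350.1 and 155 CPM) and the mitotic gene Cdc20 (158 and 342 CPM), and without centring 66.8 and 52.0% of their cells stayed together. Sub-cluster 2 kept 94.5% at resolution 1 and 89.0% with 10 components, and sub-cluster 0 kept 48.8% under both. Sub-cluster 5 (30 and 16 cells) had a median of 29048.5 UMIs per cell and 27 called doublets of 46 cells, was led by Ttr, Rbp4 and Apoa1 in tomPOS and by Crabp2 and Epcam in both libraries, and holds cells of very high depth with genes of other types.

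Matrix genes were also compared within sub-clusters. Col1a2 had a log2 fold below 0 in all 6, from -1.52 to -0.23, and the rule gene Lum from -2.002 to -0.48. Col1a1 was below 0 in 5 of 6 and at 0.48 [-0.04 to 1.002] in sub-cluster 4. Postn was at 327 and 719 CPM in sub-cluster 3, a log2 fold of -1.14 [-1.35 to -0.92], and at -1.40 [-1.88 to -0.93] in sub-cluster 1, -0.75 [-1.13 to -0.36] in 2 and -0.32 [-0.60 to -0.05] in 0. In sub-cluster 4, with 17 and 14 Postn UMIs, it was at 0.76 [-0.35 to 1.89], and in sub-cluster 5 at -1.36 [-1.92 to -0.82]. With the 6 sub-clusters weighted equally in both libraries the log2 fold was -0.98 for Postn, -1.10 for Lum, -0.42 for Wnt4, -0.44 for Wnt6 and -0.34 for Bmp2. Their unweighted values were -1.31, -0.87, -1.13, -1.01 and -0.67. Postn, Wnt4, Wnt6 and Bmp2 are leading genes of sub-cluster 3, so the sub-clusters are not independent of them.

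**Figure D5:**
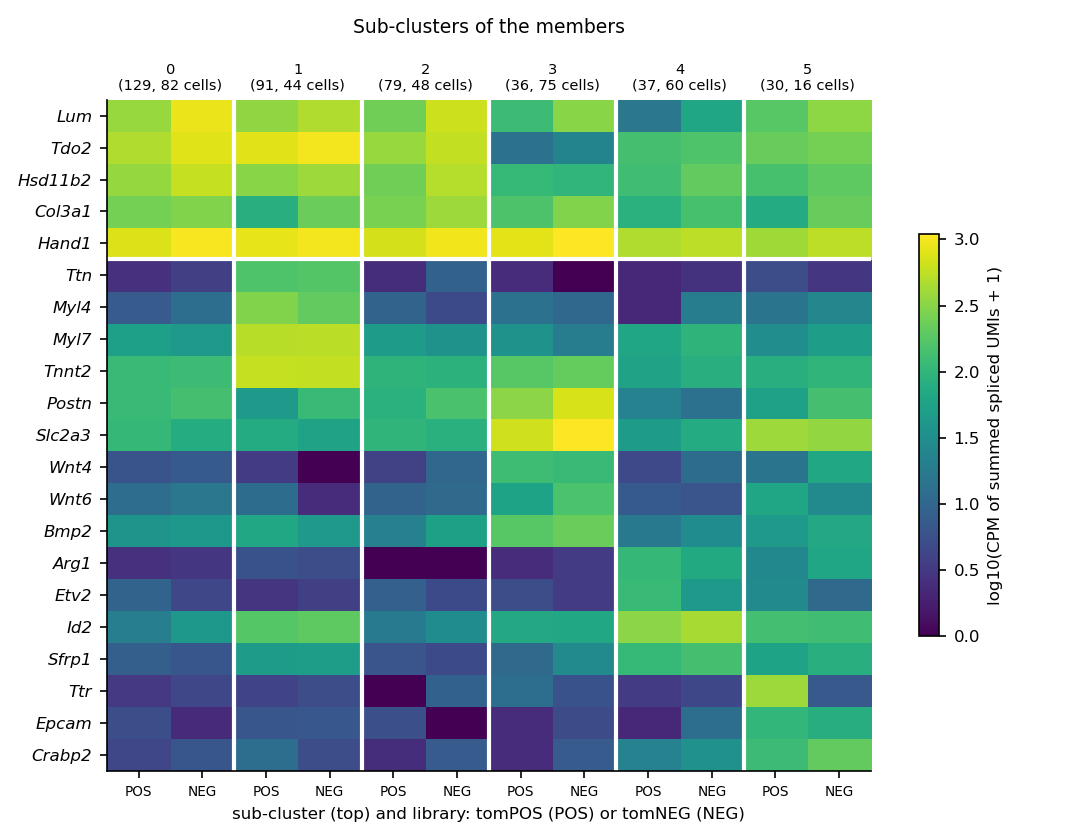
Level of the rule genes (above the white line) and of selected leading genes (below it) in the 6 sub-clusters, split by library, as log10 of CPM plus 1; cell numbers stand above the columns, tomPOS first. Sub-cluster 1 stands out by Ttn, Myl4, Myl7 and Tnnt2, sub-cluster 3 by Postn, Slc2a3, Wnt4 and Bmp2 with little Tdo2, and Ttr in sub-cluster 5 is high in tomPOS alone.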

How the data were processed

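Single-cell RNA-Seq libraries (10x Genomics) were analysed, 1 of tomPOS and 1 of tomNEG cells. The authors aligned reads with Cell Ranger 3.0.2 to mm10 with the tdTomato sequence, called cells with emptyDrops, filtered on UMIs and mitochondrial share, and deposited velocyto spliced and unspliced UMI counts per gene and cell, which are raw counts. The authors also deposited each cell's mitochondrial percent of counts. Of 18239 cells in the deposited metrics, 6 had no counts, and the shares given here are of all cells with counts. The authors also identified doublet barcodes, and the paper reports fewer cells of each fraction after quality control. Members and gene lists were chosen with earlier results of these data known.

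Spliced counts were summed over members of each library and divided by their total, in counts per 1000000 (CPM). With 1 library per fraction no test was run. Share intervals are Clopper-Pearson and log2 fold intervals exact conditional ones, both at 95% and for counting error only. A count of 0 was given a floor of 3. Genes needed 100 UMIs, and folds over other cells had 10 CPM added. Named were the rule genes, the 20 genes with the largest smaller fold over other cells, 12 genes per direction between fractions, 10 per direction beyond other cells, leading sub-cluster genes, and role-list genes. Comparison groups were set by UMI rules among cells that were not members, and neural cells needed 4 UMIs over neural genes. Allantois, splanchnic mesoderm and cardiomyocyte cells also had no Cdh5 UMI and met the globin limit. Doublets were called with Scrublet and kept. Sub-clusters came from Leiden clustering (resolution 0.5, 20 components, 15 neighbours, 909 genes). Coordinates are from GENCODE (GRCm38). Scripts used Python 3.11.15, scanpy 1.11.5 and scipy 1.17.1 and were tested on simulated data. Other thresholds, pseudocounts, depths, transcript classes, reference cells and left-out cells were tried. Some genes that the naming rule selects are not reported here.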

Additional observations from a re-analysis of the deposited data

How the results depend on the processing

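No paired analysis was possible because each fraction has 1 library, and for the same reason no library could be left out. Members were 5.80% of tomPOS and 4.31% of tomNEG cells at a 4-gene sum of at least 3, 3.08 and 2.51% at 10, and 1.80 and 1.73% with cells thinned to 5000 UMIs. Against other cells, 93 genes were higher and 16 lower with 50 CPM added, 95 were lower at a minimum of 20 UMIs, and 185 were higher against the comparison groups. Between fractions, genes higher and lower in tomPOS members numbered 135 and 190 at 20 UMIs, 7 and 23 at 300, 4 and 31 after thinning, and 294 and 483 of 3516 with the neural level subtracted. The higher genes were 23 with unspliced transcripts added, and the lower 18 with unspliced transcripts alone. Beyond the reference cells, 13 genes were lower with allantois, 10 higher and 14 lower with splanchnic mesoderm, and 25 lower with cardiomyocytes. UMI minimums, thinning and the choice of reference cells also change which genes are counted, so these counts are not shares of the same genes.

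Of the log2 folds between fractions of single genes over all alternatives, 4666 moved less than counting error and 443 moved more. A change of sign was counted apart only for genes at least 2-fold apart beyond counting error, and 12 such values changed sign. Smaller folds that changed sign are within the other counts. The other UMI minimums and leaving out the chromosome 3 genes cannot change the fold of a gene that stays in. With unspliced transcripts alone Igf2r was at 0.13, Mbnl3 at 0.20 and Igfbp5 at 0.0892, and Pyy was at -0.85 at a 4-gene sum of 10. Left-out cells and the chromosome 3 genes were alternatives chosen after seeing the data. Without the 3 tomPOS cells rich in visceral endoderm transcripts, 6 genes were higher, with Apoa1 at -1.58, Ttr at -0.75, Rbp4 at -0.0874 and Spink1 at -0.79. Without sub-cluster 5, 6 were higher, with Apoa1 at -0.35, Ttr at -0.61 and Spink1 at -0.86. Without the 5 tomPOS cells with Xist, Apoa1 was at -0.69. Beyond the reference, Hebp1 was at -0.28 with allantois and Arhgdib at 0.0481 with cardiomyocytes. The causes were not tested.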
